A study of Mus musculus with 10 samples.

Results

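The 10 miRNAs described here come from a pair of related clusters, miR-17-92 and miR-106b-25. Members were taken by name: 7 rows of the deposited count tables for miR-17-92 and 3 rows for miR-106b-25, of 1139 mature mouse miRNAs in all. Small RNA was sequenced in 10 samples of whole heart from male C57Bl6N mice. All 10 mice had been operated on by transverse aortic constriction (TAC), which narrows the aorta and loads the heart with pressure, and hearts were taken at week 1 after surgery. The knockout group (5 libraries) is labelled CITED4 knockout and the control group (5 libraries) floxed control. The labels give no age, do not say which cells lost CITED4 or by which Cre line, and do not say whether each library came from its own animal; p-values therefore speak only of the spread among the sequenced samples, and part of that spread may be technical.

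A miRNA cluster is transcribed as a single primary RNA, which is cut into hairpins and then into mature miRNAs of which usually 1 arm is retained. The mature miRNA guides a silencing complex to messenger RNAs that pair with its seed, bases 2 to 8 from the 5′ end. The miR-17-92 cluster is known for promoting growth and division, including that of heart muscle cells, and miR-17-3p has been linked to heart growth with exercise. CITED4 is a transcriptional co-regulator that is itself raised in the heart by exercise. The comparison addresses whether the levels of these growth-linked miRNAs differ between pressure-loaded hearts of the CITED4 knockout and control groups.

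The mature sequences are shown first because their seeds sort the 10 members into 5 targeting groups, 2 of which run across both clusters. They are from RefSeq (GRCm38.p6), where all 10 members matched by name, and the seed is in capitals. The first group is shared by both clusters.
miR-17-5p: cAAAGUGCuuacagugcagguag
miR-20a-5p: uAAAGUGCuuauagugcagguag
miR-93-5p: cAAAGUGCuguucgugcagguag
miR-106b-5p: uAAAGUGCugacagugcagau
The second group is also shared by both clusters.
miR-92a-3p: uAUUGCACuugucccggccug
miR-25-3p: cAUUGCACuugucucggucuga
The remaining 3 groups belong to miR-17-92.
miR-19a-3p: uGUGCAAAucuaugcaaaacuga
miR-19b-3p: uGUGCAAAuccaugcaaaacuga
miR-18a-5p: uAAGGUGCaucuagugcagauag
miR-17-3p: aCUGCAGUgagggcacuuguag

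Within a group the sequences are close, which bears on how reads could be assigned. Counting from 1 at the 5′ end, miR-17-5p and miR-20a-5p differ at 2 of 23 bases (C1U and C12U), and miR-19a-3p and miR-19b-3p at 1 of 23 (U11C). miR-106a-5p, from the related miR-106a-363 cluster on the X chromosome, differs from miR-17-5p at U10A only. How reads matching more than 1 miRNA were handled is not given in the sources used here. The mature miR-19b-3p and miR-92a-3p are each encoded at 2 loci, on chromosomes 14 and X, with identical sequence, so their counts cannot be split by locus. The opposite arms do differ by locus: miR-19b-1-5p (chromosome 14) had between 5 and 27 counts per library, while miR-19b-2-5p (X) had 0 in each of the 10. miR-92a-1-5p (chromosome 14) had 12 to 66 counts and miR-92a-2-5p (X) 0 to 4.

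The 6 hairpins of miR-17-92 span 836 bases on the plus strand of chromosome 14 (GRCm38), from Mir17 at chr14:115043671-115043754 to Mir92-1 at chr14:115044427-115044506. All 6 lie in exon 2 of the long noncoding RNA Mir17hg in GENCODE release M21. The 3 hairpins of miR-106b-25 span 498 bases on the minus strand of chromosome 5, from Mir106b at chr5:138165737-138165818 to Mir25 at chr5:138165321-138165404. They lie in intron 13 of the Mcm7-201 transcript of Mcm7, which encodes a subunit of the replicative helicase; Mir93 and Mir25 also overlap an exon of the shorter Mcm7-202. Gaps between neighbouring hairpins were 35 to 96 bases in miR-17-92 and 118 to 126 bases in miR-106b-25.

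Levels are given as CPM, a miRNA's count scaled to a common library size after TMM adjustment of the library totals. Library totals ran from 7526091 to 18369483 counts, and a count of 0 allowed up to 0.399 CPM (3 counts of the unscaled total) in the shallowest library. The heart muscle miRNAs miR-1a-3p, miR-133a-3p, miR-208a-3p and miR-499-5p were present in all libraries. Their summed level was 242432 to 503939 CPM in controls and 220406 to 386502 CPM in knockouts. Nearly all of it was miR-1a-3p (238883 to 497444 and 217084 to 382310 CPM). The summed level of 3 erythroid miRNAs (miR-144-3p, miR-144-5p and miR-486a-5p) was 13759 to 33016 and 11532 to 25240 CPM. The erythroid miR-451a was also looked for but was absent from the deposited counts. Nearly all of that sum was miR-486a-5p (13481 to 32225 and 11318 to 24375 CPM), which muscle also expresses, so the sum is no measure of blood alone; miR-144-3p was at 133 to 816 and 100.5 to 596 CPM. For 2 endothelial miRNAs it was 26220 to 35318 and 25223 to 34443 CPM, for 5 leukocyte miRNAs 1562 to 1593 and 1386 to 1762 CPM, and for 3 fibroblast miRNAs 9183 to 23242 and 12331 to 24561 CPM. Fold change estimates were lower in knockout for 4 of 4 muscle, 3 of 3 erythroid, 2 of 2 endothelial, 3 of 5 leukocyte and 0 of 3 fibroblast miRNAs. Over all tested miRNAs they were lower for 214 of 457 (46.8%). In each of these lists 0 miRNAs passed at an adjusted p under 0.05 (edgeR quasi-likelihood test). An unadjusted p under 0.05 was reached by 1 muscle miRNA and by 0 in the other lists. In whole tissue, fewer cells of a type and less RNA per cell cannot be told apart, and the part of cell composition in the values below was not tested.

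Of all miRNA counts, the 10 members together held 0.794% ± 0.129 in controls and 0.814% ± 0.063 in knockouts. Here and below, ± after a mean is the SD over the 5 libraries of a group and ± after a log2 fold change is its SE. The miR-106b-25 members held 0.667% ± 0.108 and 0.677% ± 0.050, and the miR-17-92 members 0.127% ± 0.026 and 0.137% ± 0.014. These shares use library totals without TMM scaling. After TMM scaling the fold change estimates of all 3 miR-106b-25 members were below 0. Counts of the 3 miR-106b-25 members exceeded those of the 7 miR-17-92 members 5.31-fold ± 0.58 in controls and 4.94-fold ± 0.25 in knockouts, and the ranges (4.32 to 5.75 and 4.73 to 5.28) overlapped.

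**Figure D1:**
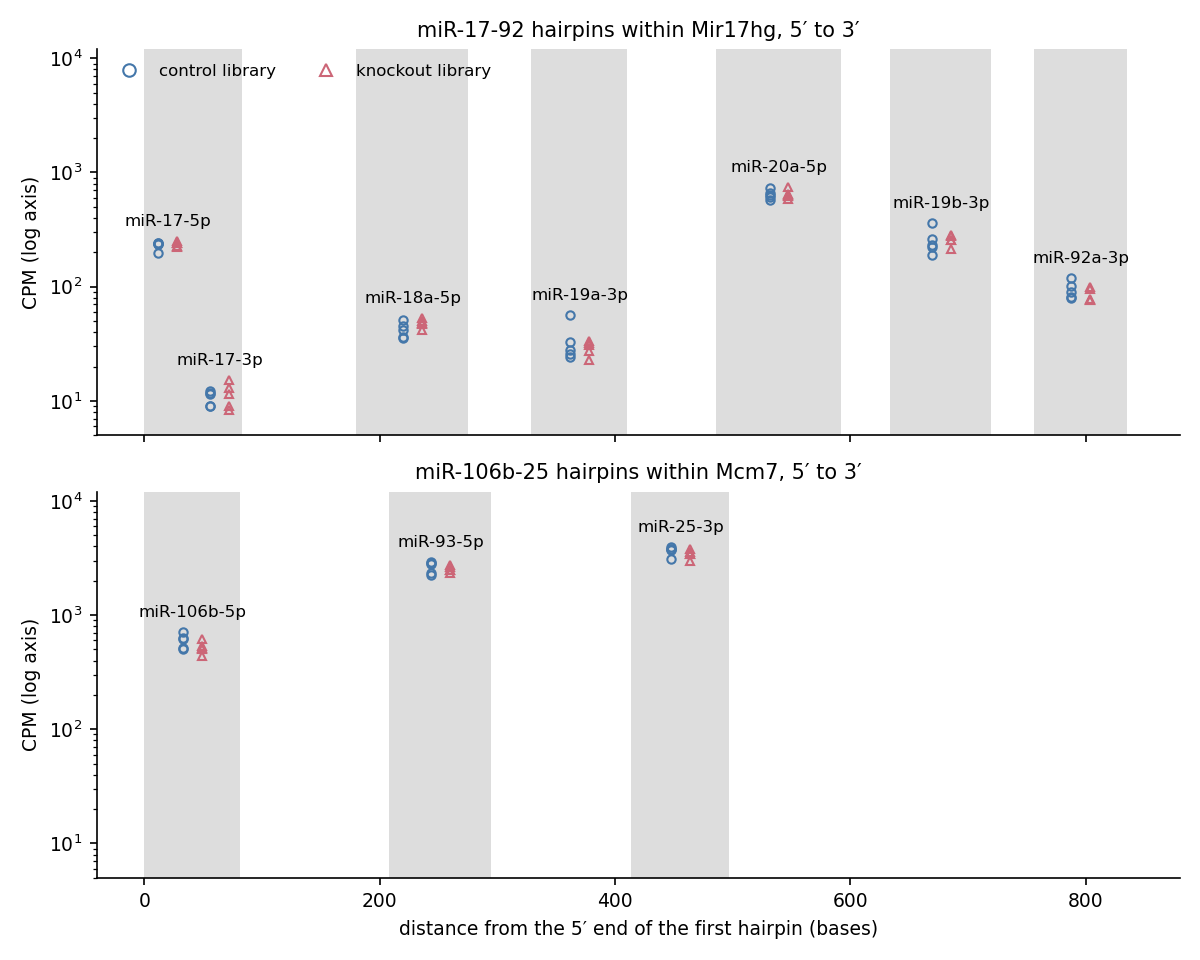
Levels of the 10 members along their hairpins. The x axis is the distance in bases from the 5′ end of the first hairpin of each cluster, grey bands are hairpins, and points are single libraries (circles control, triangles knockout) in CPM on a log axis, placed inside their hairpin; control and knockout points overlap at every member, while members of the same cluster differ widely in level.

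No member passed the test between genotypes, and none had knockout libraries all above or all below the controls. In edgeR's quasi-likelihood test, adjusted over 457 miRNAs, 0 of 10 members were called, and the background was the same, with 0% of the 457 called. At an unadjusted p under 0.05 there were 0 of 10 members against 6.35% of all tested (29 of 457), and the groups did not overlap for 0 of 10 members against 0.656% of all tested. DESeq2 and limma-voom likewise called 0, with 0 members and 45 of 1105 and 23 of 457 miRNAs at an unadjusted p under 0.05. The log2 fold changes of the members ran from -0.19 to 0.20, with 5 higher and 5 lower in knockout and a median of -0.02, against a median of 0.03 over all tested. In miR-17-92, 5 of 7 members were higher, and in miR-106b-25, 3 of 3 were lower. With library totals in place of TMM scaling the split of the 10 members was 7 higher and 3 lower, with miR-93-5p and miR-25-3p turning. The median over all tested was then 0.14. With TMM scaling, the median absolute log2 fold change of the members was 0.09, against 0.24 over all tested. In that fit the 95% intervals of all 10 members lay within a 2-fold change in either direction, which held for 301 of the 457 tested. By mean level the members ranked from 31 to 272 of the 457.

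**Figure D2:**
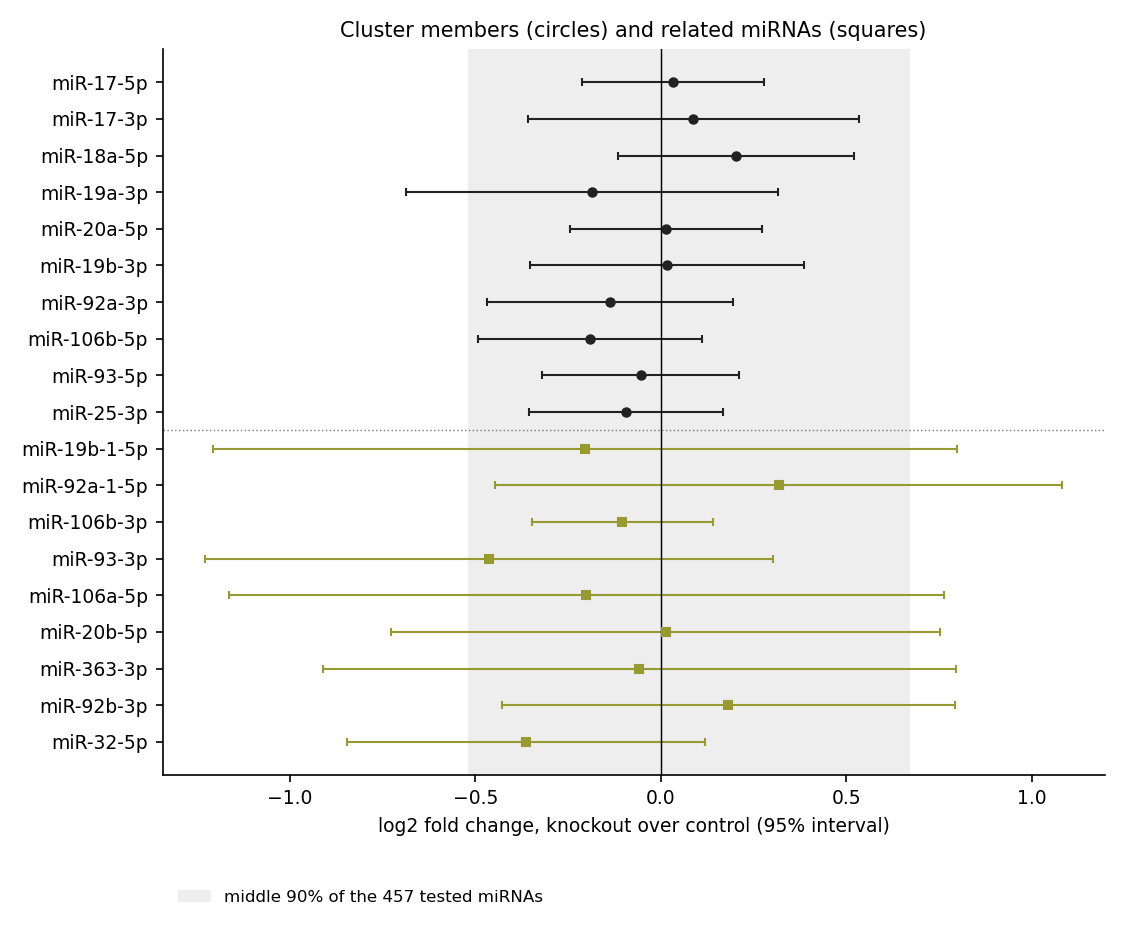
Log2 fold change of knockout over control with its 95% interval from edgeR, for the 10 members (circles) and 9 related miRNAs that were tested (squares). The grey band holds the middle 90% of the 457 tested miRNAs; every interval includes 0, and those of the members lie between -0.69 and 0.53.

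The group with seed AAAGUGC represses inhibitors of the cell cycle such as Cdkn1a, and miR-17-5p is its namesake. In controls 1 to 5 mmu-miR-17-5p was at 238.02, 198.7, 241, 243 and 238 CPM. In knockouts 1 to 5 it was at 229, 223, 252, 242 and 239 CPM. Apart from the low control 2, the libraries of both groups lay between 223 and 252 CPM. The means were 232 ± 18.7 and 237 ± 11.2 CPM, and edgeR estimated a log2 difference of 0.03 ± 0.11 (95% interval -0.21 to 0.28, adjusted p = 0.90). Without control 2 it was -0.0016, on the other side of 0.

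mmu-miR-20a-5p, which has the same seed, was the most abundant miR-17-92 member and took 49.2% ± 4.31 of that cluster's counts in controls and 49.1% ± 2.22 in knockouts. Its levels in controls 1 to 5 were 638, 659, 604, 730.1 and 574 CPM. Those in knockouts 1 to 5 were 622, 583, 752, 645 and 633 CPM. The knockouts lay within the controls' range except for knockout 3, which was higher than any control. The log2 fold change was 0.01 ± 0.12 with an interval from -0.25 to 0.27.

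mmu-miR-93-5p, the most abundant miRNA with this seed, was at 2919, 2866, 2317, 2793 and 2257 CPM in controls 1 to 5. In knockouts 1 to 5 it was at 2356, 2470, 2760, 2468 and 2610 CPM. All 5 knockouts fell within the controls' range, and the spread was narrower in knockouts (155.7 CPM, SD) than in controls (317 CPM), a difference that was not tested. The log2 fold change was -0.05 ± 0.12, with an interval from -0.32 to 0.21.

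mmu-miR-106b-5p, the first miRNA of its cluster, had the lowest mean ratio among members with this seed. Controls 1 to 5 were at 511, 502, 717, 618 and 629.9 CPM. Knockouts 1 to 5 were at 438, 511, 536, 614 and 508 CPM. Controls 3, 4 and 5 were above every knockout, while controls 1 and 2 were within the knockouts' range. The means were 596 ± 89.95 and 522 ± 63.1 CPM, and 4 of 5 knockouts were below the control mean. On the log2 scale the difference was -0.19 ± 0.14, with an interval from -0.49 to 0.11 (edgeR quasi-likelihood test, Benjamini-Hochberg adjusted p = 0.64). Without control 3, the highest library, it was -0.088, and without knockout 1, the lowest, -0.11. Summed over the 6 deposited miRNAs with this seed, the level was 4104 ± 297 CPM in controls and 3944 ± 247 CPM in knockouts, of which the 4 members made up 99.9% in either group.

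The group with seed AUUGCAC includes miR-25-3p, reported to target the calcium pump Atp2a2 (SERCA2a) in heart muscle, and miR-92a-3p, reported to restrain vessel growth. mmu-miR-25-3p was the most abundant member, at 3807, 3735, 3121, 3917 and 3767 CPM in controls 1 to 5. In knockouts 1 to 5 it was at 3405, 2993, 3563, 3793 and 3434 CPM. Control 3 was low among controls, and 4 of 5 knockouts were below every control but that library. The log2 fold change was -0.09 ± 0.12 with an interval from -0.36 to 0.17, and -0.016 without knockout 2, the lowest library.

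mmu-miR-92a-3p was far rarer, although it shares its seed with miR-25-3p and differs from it at 3 of 21 compared bases (U1C, C14U and C18U). Its levels were 79.6, 119, 100.4, 80.5 and 89.7 CPM in controls 1 to 5. Knockouts 1 to 5 were at 95.4, 77.4, 77.2, 99.6 and 77.1 CPM. Knockouts 2, 3 and 5 lay just under the lowest control and the other knockouts within the controls' range. The log2 fold change was -0.14 ± 0.15 with an interval from -0.47 to 0.20, and -0.022 without control 2, the highest library. The 5 deposited miRNAs with this seed summed to 3943 ± 334 CPM in controls and 3667 ± 303 CPM in knockouts.

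The miR-19 miRNAs had the highest coefficients of variation of the members between controls, 39.5% for miR-19a-3p and 26.2% for miR-19b-3p. mmu-miR-19b-3p was at 234, 189, 364, 260.2 and 223 CPM in controls 1 to 5. Knockouts 1 to 5 were at 257, 281, 277, 255 and 214 CPM, all within the controls' range. Its log2 fold change was 0.02 ± 0.17. mmu-miR-19a-3p was at 32.9, 24.4, 56.2, 27.8 and 25.6 CPM in controls 1 to 5. In knockouts 1 to 5 it was at 31.1, 27.1, 33.7, 32.0 and 22.8 CPM. Control 3 was highest for both miRNAs and set the sign for miR-19a-3p: the log2 fold change was -0.18 ± 0.23 with all libraries and 0.11 without control 3, neither past the threshold (edgeR).

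mmu-miR-18a-5p, whose seed differs from that of miR-17-5p at A4G, was at 51.0, 35.6, 44.9, 41.5 and 36.1 CPM in controls 1 to 5. Knockouts 1 to 5 were at 53.5, 42.0, 47.9, 50.1 and 47.3 CPM. All 5 knockouts were above the control mean, but control 1 was higher than 4 of them. The means were 41.8 ± 6.41 and 48.1 ± 4.25 CPM. The log2 difference, 0.20 ± 0.15, was the highest of the members, with an interval from -0.12 to 0.52 (edgeR quasi-likelihood test, Benjamini-Hochberg adjusted p = 0.64).

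mmu-miR-17-3p, the exercise-linked arm, was the rarest member, at 11.7, 8.97, 12.2, 11.6 and 9.09 CPM in controls 1 to 5. Knockouts 1 to 5 were at 15.3, 12.97, 9.09, 11.4 and 8.28 CPM. Knockouts 1 and 2 were above every control and knockout 5 below every control. The means were 10.7 ± 1.55 and 11.4 ± 2.85 CPM, and the log2 difference was 0.09 ± 0.21 (interval -0.36 to 0.53), so changes of up to 1.45-fold upward or to 0.78 of the control level were within the interval. Its counts were 75 to 185 per library, where counting error alone is a coefficient of variation of 7.35% to 11.5%, against an observed 14.4% in controls and 25.0% in knockouts. For miR-25-3p, with 26669 to 62633 counts, counting error was at most 0.612% and the observed value 8.56% and 8.50%.

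**Figure D3:**
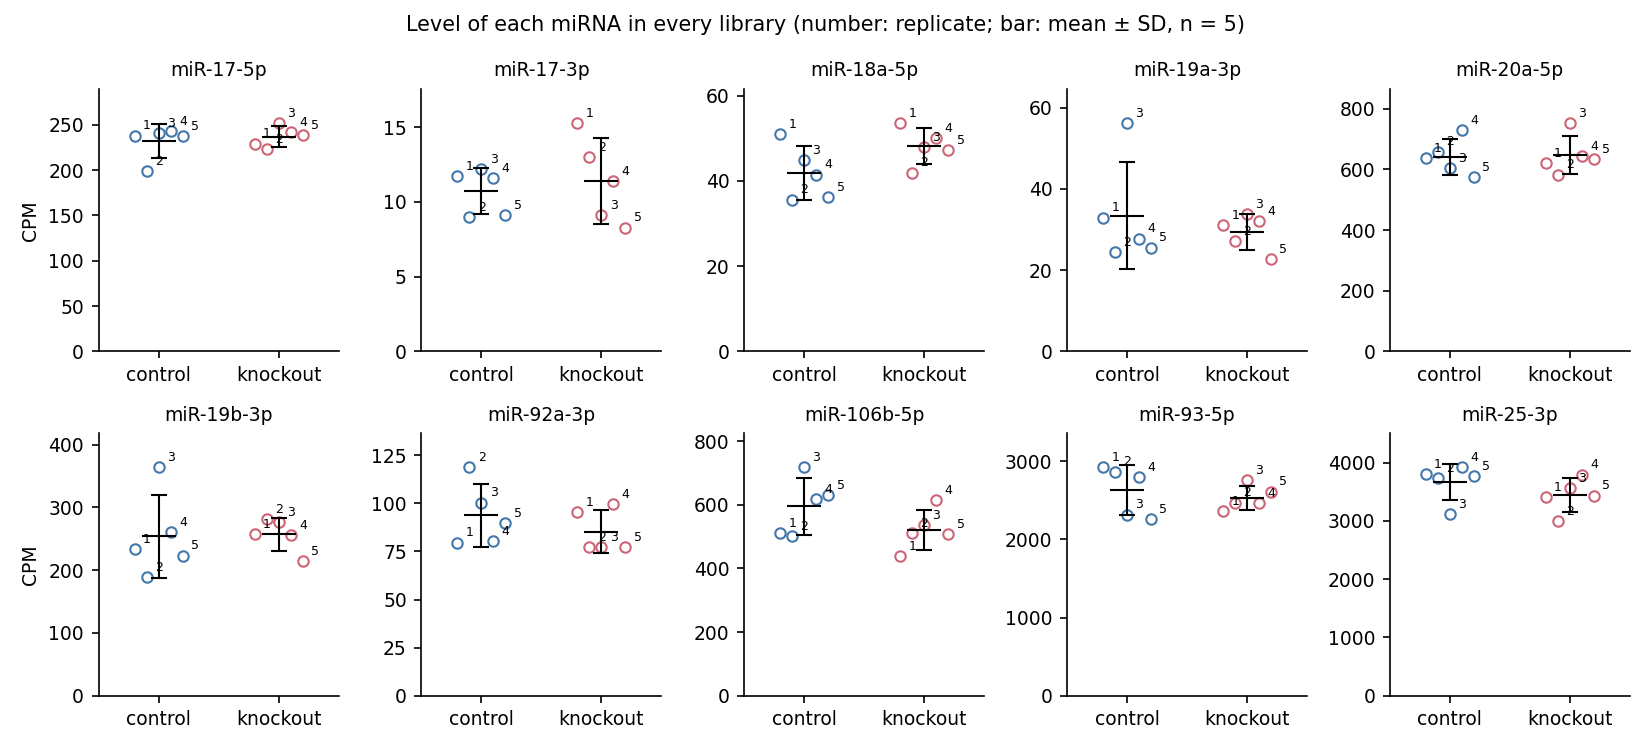
CPM of each member in every library, with the replicate number beside each point and the mean ± SD (n = 5) as a bar; y axes start at 0. Control 3 stands high for miR-19a-3p, miR-19b-3p and miR-106b-5p and low for miR-25-3p, and the groups overlap in all 10 panels.

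Which arm of a hairpin was retained differed between hairpins of the same cluster. The Mir17 and Mir106b hairpins are shown because their minor arms, miR-17-3p and miR-106b-3p, were the most abundant of the minor arms; both arms are in capitals.
Mir17: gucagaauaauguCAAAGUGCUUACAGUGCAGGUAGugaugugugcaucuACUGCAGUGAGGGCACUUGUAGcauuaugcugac
Mir106b: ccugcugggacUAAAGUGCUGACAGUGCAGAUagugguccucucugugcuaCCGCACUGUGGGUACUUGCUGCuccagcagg
The 3p arm made up 4.41% ± 0.44 of both arms of Mir17 in controls and 4.61% ± 1.26 in knockouts. In Mir106b, the 3p arm made up 23.2% ± 3.94 and 24.1% ± 1.96. In the neighbouring Mir93 and Mir25 hairpins the minor arm was 0.109% ± 0.018 and 0.025% ± 0.020 of both arms in controls, and 0.079% ± 0.038 and 0.020% ± 0.006 in knockouts. For Mir18 it was 0.852% ± 0.576 in controls and 1.82% ± 1.59 in knockouts, resting on 0 to 20 counts of miR-18a-3p per library.

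Ratios of 2 miRNAs within a library do not depend on library scaling and were tested for 9 pairs by an exact two-sided permutation test over the libraries (smallest possible p = 0.0079). None of the 9 passed, and 0 had an unadjusted p under 0.05. After adjustment over the 9, a single ratio could not pass on its own, even with the groups fully separated. miR-17-3p was 4.61% ± 0.48 of miR-17-5p in controls and 4.85% ± 1.38 in knockouts (exact permutation p = 0.90, adjusted p = 0.98). The knockouts were at 6.65%, 5.81%, 3.61%, 4.70% and 3.46%, and so lay on either side of the controls (3.83% to 5.04%). The smallest p belonged to miR-106b-5p over miR-17-5p, members of different clusters with the same seed, at 257% ± 29.6 in controls and 219.9% ± 23.1 in knockouts. The difference was -0.22 on the log2 scale (exact permutation p = 0.056, adjusted p = 0.50). The next was miR-18a-5p over miR-17-5p, with a difference of 0.18 (exact permutation p = 0.12, adjusted p = 0.54). Without control 1 these were -0.29 (exact permutation p = 0.024) and 0.24 (exact permutation p = 0.016), each with an adjusted p of 0.11, and without knockout 4 the first was -0.28 (exact permutation p = 0.024, adjusted p = 0.21). For the rest, differences ran from -0.17 for miR-19a-3p over miR-19b-3p to 0.14 for miR-93-5p over miR-106b-5p, the latter 0.025 without control 3.

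**Figure D4:**
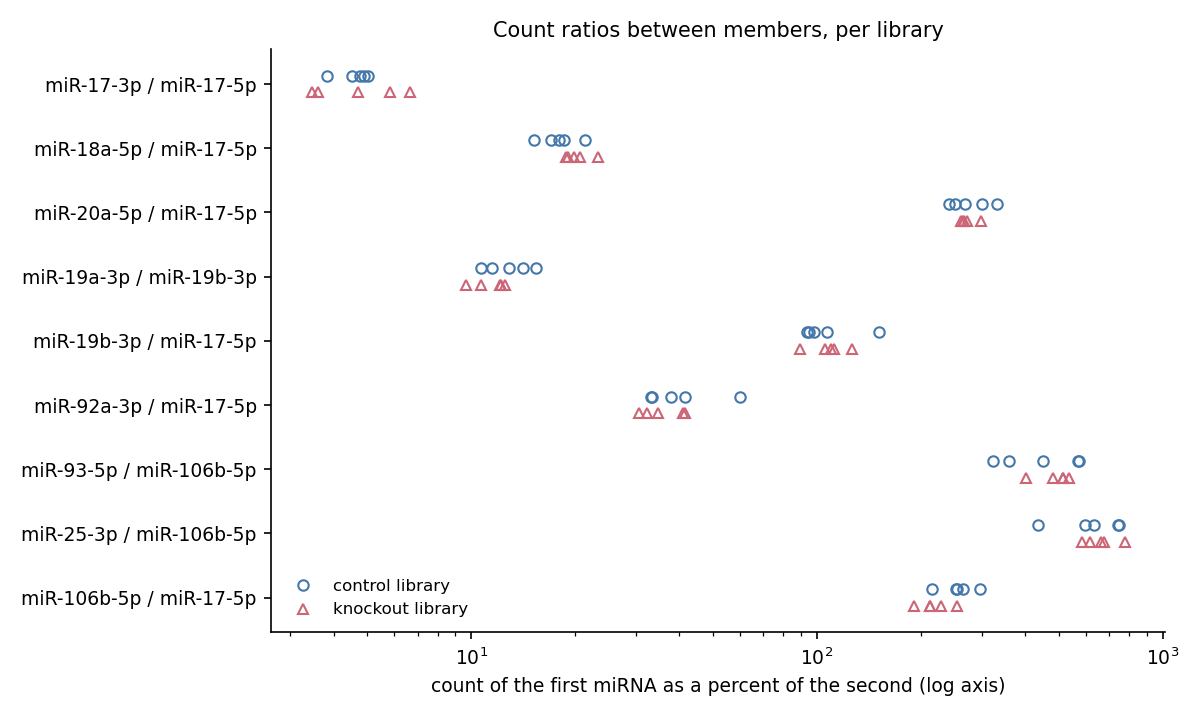
Count of the first miRNA as a percent of the second in each library, on a log axis, for 9 ratios (circles control, triangles knockout). Ratios span from 3.46% for miR-17-3p over miR-17-5p to 777% for miR-25-3p over miR-106b-5p, and control and knockout libraries overlap in all 9.

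Cluster mates are cut from the same primary RNA, so the libraries were asked whether they varied together within a genotype. For 16 pairs, Pearson's r and Spearman's rho were computed over 10 libraries on log2 CPM less the group mean, with exact permutation of libraries within groups. None of the 16 passed at an adjusted p of 0.05 for either coefficient. The highest r was between miR-19a-3p and miR-19b-3p (r = 0.88, exact permutation p = 0.011, adjusted p = 0.18; rho = 0.76, exact permutation p = 0.021, adjusted p = 0.33). Without the 2 libraries farthest from the median, controls 2 and 3, it was r = 0.60. For miR-106b-5p and its cluster mates, r was -0.47 with miR-93-5p (rho = -0.50, exact permutation p = 0.23 for r and 0.19 for rho, adjusted p = 0.57 and 0.55) and -0.14 with miR-25-3p (rho = 0.16, exact permutation p = 0.72 and 0.67, adjusted p = 0.996 and 0.82). Without control 3 and knockout 1, r was -0.58 with miR-93-5p and 0.31 with miR-25-3p. For both pairs the relation was negative over the control libraries and positive over the knockout libraries; 5 libraries a group are too few for a coefficient, and the difference between groups was not tested. With miR-17-5p, on another chromosome, r was 0.59 (rho = 0.55, exact permutation p = 0.10 and 0.11, adjusted p = 0.57 and 0.53; r = 0.55 without control 2 and knockout 2).

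These correlations depended on the scaling. With TMM scaling, r of miR-17-5p was 0.0066 with miR-17-3p, 0.50 with miR-18a-5p, 0.44 with miR-19a-3p and 0.51 with miR-19b-3p. It was 0.26 with miR-20a-5p and -0.59 with miR-92a-3p. Without control 2 and knockout 2, these values ran from -0.48 with miR-92a-3p to 0.55 with miR-20a-5p. With library totals only, 6 of the 16 pairs passed in place of 0, among them miR-17-5p with miR-17-3p (r = 0.82), miR-18a-5p (0.95), miR-19a-3p (0.88) and miR-19b-3p (0.86) (exact permutation test, adjusted p = 0.018 for each). miR-19a-3p with miR-19b-3p (0.95, adjusted p = 0.018) and miR-93-5p with miR-25-3p (0.81, adjusted p = 0.038) were the others. For miR-106b-5p with miR-93-5p and miR-25-3p the sign turned, to r = 0.25 and 0.29 (exact permutation test, adjusted p = 0.63 and 0.56). By library totals r also rose for pairs outside a cluster, miR-17-5p with miR-93-5p and with miR-126a-3p. It fell for miR-25-3p with miR-144-3p. The share of all other miRNA pairs that would pass by library totals was not computed, so the 6 cannot be read as particular to cluster mates.

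Among the 447 tested miRNAs that are not members, those most like miR-106b-5p over the 10 libraries were miR-101a-3p (r = 0.97), miR-30b-5p (0.96), miR-1a-1-5p (0.95), miR-29c-3p (0.95) and miR-219a-1-3p (0.93). Each had an adjusted p of 0.028 over the 447 for r (exact permutation within groups), and adjusted p values of 0.062 to 0.074 for rho (0.89 to 0.95), so that the threshold was passed by r and not by rho. In all, 26 of the 447 passed for r, 13 in each direction, and 0 for rho. Without control 3 and knockout 1, the libraries farthest from the median, the 5 values of r were 0.87 to 0.97, and with library totals only 0.68 to 0.90. miR-1a-1-5p is the minor arm of a muscle miRNA hairpin, and miR-30b-5p and miR-29c-3p belong to families abundant in heart. miR-219a-1-3p was rare, at a log2 CPM of 0.32 to 2.59 over the libraries. The summed level of the 4 heart muscle miRNAs, nearly all of it miR-1a-3p, also varied widely among controls (242432 to 503939 CPM). Control 3, the highest library for miR-106b-5p, was near the low end for miR-1a-3p (243301 CPM). It was the highest control for miR-133a-3p (1970 CPM) and miR-208a-3p (932 CPM), and between the others for miR-499-5p (2400 CPM). The muscle miRNAs thus did not vary alike. Controls 1 and 2 were the lowest controls for miR-106b-5p, miR-133a-3p, miR-208a-3p and miR-499-5p, whereas controls 1 and 3 were for miR-1a-3p. In controls 1 to 5 miR-133a-3p was at 1246, 1267, 1970, 1756 and 1861 CPM. In knockouts 1 to 5 it was at 1014, 994, 1329, 1469 and 1079 CPM, with knockouts 3 and 4 highest, as for miR-106b-5p. The part of heart muscle content in these correlations was not tested. The same search for miR-17-5p returned miR-153-3p, let-7e-3p, miR-129-2-3p, miR-676-3p and miR-15a-5p (r = 0.82 to 0.85), and 0 of 447 passed for r or rho (smallest adjusted p among the 5, exact permutation, 0.26 for r). Of these, miR-153-3p (log2 CPM -0.70 to 1.73) and miR-129-2-3p (-1.19 to 1.03) were rare. With 1 library left out, r for miR-129-2-3p fell as low as 0.18.

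**Figure D5:**
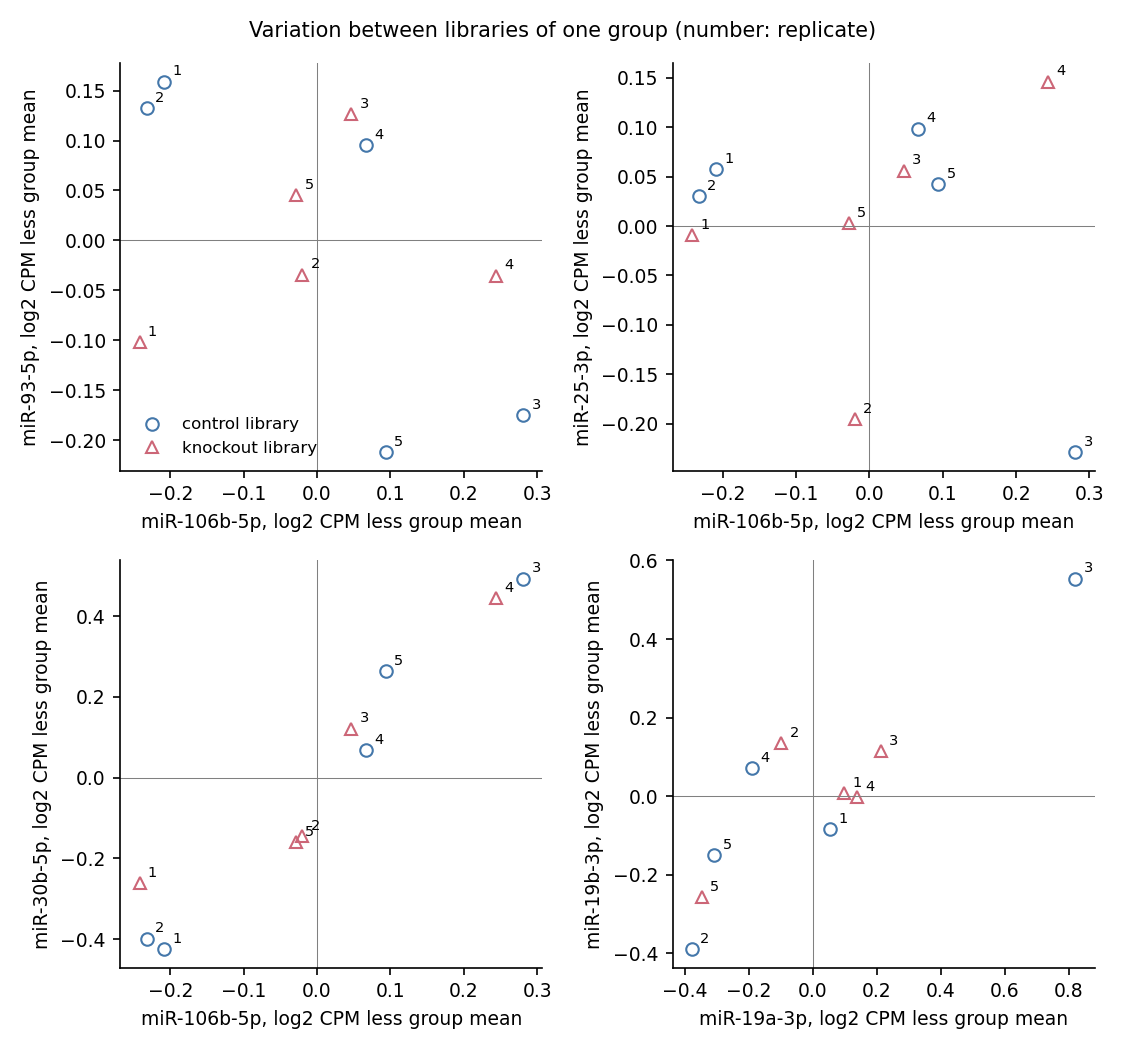
Log2 CPM less the group mean of 2 miRNAs per panel in the 10 libraries (circles control, triangles knockout, number for the replicate). For miR-106b-5p, r was 0.96 with miR-30b-5p, -0.47 with miR-93-5p and -0.14 with miR-25-3p; for miR-19a-3p with miR-19b-3p it was 0.88, with control 3 far out.

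Of the 8 other arms of the members' hairpins, 4 were abundant enough to test; 1 estimate was above 0 and 3 were below, and 0 passed (edgeR). miR-106b-3p was the most abundant, with control libraries at 177 ± 12.7 CPM and knockout libraries at 165 ± 7.03 CPM; its log2 difference was -0.10 (95% interval -0.35 to 0.14), beside -0.19 for the 5p arm. miR-92a-1-5p was at 3.79 ± 1.58 and 4.77 ± 1.48 CPM, miR-93-3p at 2.84 ± 0.25 and 2.05 ± 1.104 CPM, and miR-19b-1-5p at 1.59 ± 0.71 and 1.40 ± 0.65 CPM.

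The mature miRNAs found only in the paralogous miR-106a-363 cluster on the X chromosome were rare. miR-19b-3p and miR-92a-3p, also encoded on X, cannot be split by locus and are not counted among them. Of 10 mature miRNAs listed, 8 were among the deposited ones, 2 of these had no count and 3 were tested; 1 estimate was above 0 and 2 were below, and 0 passed (edgeR). miR-363-3p, which has the seed of miR-25-3p, was at 8.17 ± 3.56 and 7.91 ± 3.45 CPM. miR-20b-5p and miR-106a-5p, which have the seed of miR-17-5p, were at 3.60 ± 1.70 and 3.68 ± 0.91 CPM and at 1.55 ± 0.89 and 1.37 ± 0.45 CPM. Of 3 seed relatives outside such clusters 2 were tested and 0 passed: miR-32-5p averaged 166 ± 53.7 CPM in control and 129 ± 24.4 CPM in knockout libraries, a log2 difference of -0.36 (interval -0.85 to 0.12), and miR-92b-3p at 6.36 ± 2.01 and 7.25 ± 2.45 CPM.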

How the data were processed

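Per the labels' protocols, RNA from frozen hearts went into NEXTflex libraries. The authors deposited raw read counts per mature miRNA and a second table that is a linear signal, each deposited count divided by 1 factor per library; the factor equals the DESeq2 size factor computed from the counts. Bowtie, STAR, cutadapt, DESeq2 and the build GRCm38 are named, per the submitters' processing notes, with no role given. Any use of molecular identifiers is not given in the sources used here.

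Counts were tested with edgeR 4.0.16 in R 4.3.3 (filterByExpr, TMM, quasi-likelihood test, genotype as the only term, Benjamini-Hochberg over 457 miRNAs, threshold 0.05). The filter kept 457 of 1139 miRNAs and all 10 members. SE is the log2 fold change over the square root of F; 95% intervals use the t distribution. Log2 CPM has a prior count of 2, and ratios a pseudocount of 0.5. Fits were tested on simulated data. Alternatives were DESeq2 1.42.0, limma-voom (limma 3.58.1), library totals only, other filters, the replicate block and leaving out each library. Members, related lists, markers and pairs were chosen with earlier results of these data known. All members are named; of each related list, up to 4 with the highest mean; for likeness, the 5 highest r.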

Additional observations from a re-analysis of the deposited data

Results flagged for a closer look

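In 44 groups of 5 libraries (10 levels, 9 ratios and 3 cluster measures in each genotype), the gap between the highest or lowest library and its nearest neighbour was compared with the group's range. In 5 of the 44 this share was above the 95% critical value of 0.71, where chance gives about 1 in 20, or 2.2. The 44 groups share libraries and miRNAs and are not independent, so an excess over 2.2 was not tested. Control 3 accounted for 3 of them: for miR-19a-3p it read 56.2 CPM where the other control libraries read 24.4 to 32.9 (gap 0.730 of the range), its miR-25-3p level 3121 CPM against 3735 to 3917 CPM (0.772), and its miR-19b-3p count 151% of miR-17-5p against 93.9% to 107% (0.771). Control 2 had 198.7 CPM of miR-17-5p against 238 to 243 CPM in the others (0.871). Knockout 3 had a miR-20a-5p count of 299% of miR-17-5p against 261% to 271% (0.739).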

How the results depend on the processing

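In all 16 alternative fits 0 miRNAs and 0 of the 10 members passed, and 0 members had an unadjusted p under 0.05; the count over all tested was 29 of 457 and ranged from 6 to 84 with 1 library left out, 84 of 466 without control 1 and 65 of 467 without knockout 4, with 102 of 1105 without a filter, 16 of 282 with the stricter filter (10 CPM in at least 5 libraries) and 14 of 457 with library totals only. Under library totals only, the median over all tested miRNAs went from 0.03 to 0.14 (log2), and the estimates turned to 0.046 for miR-93-5p and 0.020 for miR-25-3p, with -0.091 for miR-106b-5p and -0.026 for miR-92a-3p. With 1 library left out, log2 fold changes turned for miR-17-5p (-0.0016 to 0.085), miR-17-3p (-0.013 to 0.20), miR-19a-3p (-0.27 to 0.11), miR-19b-3p (-0.058 to 0.21), miR-20a-5p (-0.021 to 0.080) and miR-93-5p (-0.092 to 0.00084); the cause was not tested. The 9 ratios passed in 0 of 12 alternatives, where again a single ratio could not pass on its own. With 1 library left out the sign turned for miR-17-3p over miR-17-5p (-0.097 to 0.14) and miR-19b-3p over miR-17-5p (-0.045 to 0.13). The same held for miR-20a-5p over miR-17-5p (-0.071 to 0.043) and miR-25-3p over miR-106b-5p (-0.034 to 0.16).

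The replicate block gave 72 of 457 at an unadjusted p under 0.05 and 0 past the threshold, a log2 fold change of -0.19 for miR-106b-5p and 0.21 for miR-18a-5p, and no ratio could pass, since its smallest possible p is 0.0625; miR-18a-5p over miR-17-5p and miR-106b-5p over miR-17-5p were at that limit (exact permutation, adjusted p = 0.28), each with 1 direction in all 5 same-number pairs. The design was treated as unpaired because the labels do not say that same-number libraries are paired. Same-number pairs correlated from -0.12 to 0.45 in their deviations (3 of 5 above 0.1). For 4 of 10 libraries the closest partner had the same number. These values do not exclude a pairing.

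Alternatives for correlations were chosen after seeing the data. With library totals only 6 of 16 pairs passed, and with 1 library left out 0 to 1 (1 without control 2, miR-17-5p with miR-20a-5p). By library totals r turned to 0.55 for miR-17-5p with miR-92a-3p, 0.25 and 0.29 for miR-106b-5p with miR-93-5p and miR-25-3p, 0.67 for miR-17-5p with miR-93-5p, 0.71 for miR-92a-3p with miR-25-3p, -0.70 for miR-25-3p with miR-144-3p and 0.49 for miR-17-5p with miR-126a-3p. With the deposited normalized counts it turned to -0.10 for miR-17-5p with miR-17-3p and 0.12 for miR-92a-3p with miR-25-3p. With 1 library left out r turned for miR-106b-5p with miR-25-3p (-0.46 to 0.44), for miR-17-5p with miR-126a-3p (-0.21 to 0.091), miR-17-3p (-0.58 to 0.16) and miR-93-5p (-0.31 to 0.39), for miR-25-3p with miR-144-3p (-0.10 to 0.31), and for miR-92a-3p with miR-144-3p (-0.39 to 0.17) and miR-25-3p (-0.24 to 0.21). The r of the 5 miRNAs most like miR-106b-5p stayed between 0.90 and 0.98 with 1 library left out.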
